A study of Mus musculus with 4 samples.

Results

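The core circadian clock loop was examined as 10 genes, 3 that encode its activators (Arntl, Npas2 and Clock) and 7 that encode its repressors (Per1, Per2, Per3, Cry1, Cry2, Nr1d1 and Nr1d2). They are 10 of the 21959 gene IDs of the deposited table and were matched to it by symbol, each to 1 row. The genes were selected on their read counts over the 4 livers, in the sense that the list was drawn up with the baicalein against saline result of most of them known. Their differences between the groups, and whether each passed the threshold of the fit across all genes, are therefore given as a description and serve as no evidence for a change. All livers were of wild-type (WT) mice in ACLF, that is acute-on-chronic liver failure, where a sudden injury strikes a liver that is already diseased. In 2 of them the mouse was given saline and in the other 2 baicalein, a flavone of Scutellaria baicalensis root. The labels give no agent for the injury, dose, age, sex or hour of collection, and the level of clock genes cycles over the day. A difference between the groups in the hour of collection therefore cannot be told apart from the treatment in any clock value below. They number the livers without saying that these are separate animals. The errors therefore measure only how far the deposited samples lie apart, and part of that may be technical.

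In this loop the proteins of Arntl (also called Bmal1) and of Clock or Npas2 pair up and bind E-box sequences, which switches on the Per, Cry and Nr1d genes. PER and CRY proteins then block that pair, while the nuclear receptors REV-ERB alpha and REV-ERB beta, made from Nr1d1 and Nr1d2, bind ROR elements and repress Arntl and Npas2. Liver holds a strong clock of this kind, in which the activator transcripts and most of the repressor transcripts peak at different times of day. Feeding, glucocorticoids and body temperature can shift this clock.

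Upstream sequence shows which of these elements lie close to the start of each gene. RefSeq promoters (GRCm38.p6) were found for 9 of the 10 genes, all but Per2, and the 250 bases before each start were searched on both strands. The E-box CACGTG was found in Per1 and Cry1, against 6.86% of the 27025 genes with a promoter in the table. The E-box variant CACGTT was found in Cry1, Cry2 and Nr1d1 (4.50% of all genes). The D-box TTATGTAA, bound by the proteins of Dbp, Tef, Hlf and Nfil3, was found in Per3 (0.977% of all genes). Per3 holds 2 copies, starting 205 and 158 bases before the start, and 6 genes of the table hold at least 2 in 1 promoter. The ROR element core AGGTCA was found in Clock, Per1 and Nr1d2 (15.8% of all genes). Clock has 3 promoters in the table, of which 1 holds the core, and Per1 has 2, of which 1 holds its motifs. The longer form TAGGTCA, which contains the core, was found in none of the 9 genes (2.55%). The D-box form TTACGTAA (0.118%) and the cAMP response element TGACGTCA (1.77%) were not found in these windows either. A match of letters describes the sequence and does not show binding, and elements beyond 250 bases or after the start were not searched. The promoters that hold a full E-box or D-box are shown 5′ to 3′ on the strand of the gene, with every motif found in capitals.
Per1 (chr11:69098699-69098948, plus strand): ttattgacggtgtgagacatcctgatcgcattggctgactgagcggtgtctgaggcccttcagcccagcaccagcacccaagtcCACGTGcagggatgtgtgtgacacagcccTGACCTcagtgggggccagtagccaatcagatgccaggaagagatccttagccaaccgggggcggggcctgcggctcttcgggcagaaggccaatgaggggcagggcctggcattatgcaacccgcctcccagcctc
Per3 (chr4:151044666-151044915, minus strand): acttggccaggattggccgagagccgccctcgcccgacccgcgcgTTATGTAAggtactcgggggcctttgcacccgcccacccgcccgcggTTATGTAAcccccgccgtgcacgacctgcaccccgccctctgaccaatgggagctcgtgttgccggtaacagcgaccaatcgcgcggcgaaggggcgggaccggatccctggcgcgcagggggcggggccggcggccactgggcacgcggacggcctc
Cry1 (chr10:85185055-85185304, minus strand): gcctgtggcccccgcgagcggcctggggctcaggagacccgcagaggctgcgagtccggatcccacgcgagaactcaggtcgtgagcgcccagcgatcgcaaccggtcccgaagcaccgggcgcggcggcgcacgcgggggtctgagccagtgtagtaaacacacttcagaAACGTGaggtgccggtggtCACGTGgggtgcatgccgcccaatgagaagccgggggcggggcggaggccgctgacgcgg
In Per1 the capitals mark the E-box, 166 to 161 bases before the start, and the ROR element core read on the opposite strand. In Per3 they mark the 2 D-boxes. In Cry1 they mark the E-box variant on the opposite strand, which reads AACGTG here, followed by the E-box 60 to 55 bases before the start.

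Total counts ran from 13976440 to 18731616 reads, and 12657 genes had enough reads to be tested, all 10 clock genes among them. Levels are given within a gene as CPM, its read count scaled by the normalised library size, and as the authors' FPKM, which also divides by gene length, between genes. Hepatocyte markers such as Alb were high in every liver (54510 ± 1914 CPM with saline and 81019 ± 9558 CPM with baicalein, SD, n = 2 each). The hepatocyte list had no common direction. Of its 7 tested genes 2 were called higher (adjusted p below 0.05), Alb among them, and 1 lower, with a median log2 fold change of -0.08. Of all tested genes 7.65% were called higher and 7.9% lower. Reads of 12 skeletal muscle genes summed to 6399 CPM in saline 1 and 2076 CPM in baicalein 2, against 1.46 and 1.10 CPM in saline 2 and baicalein 1, where Myh1, Myh4, Ckm, Pvalb and Tnni2 had no read. Reads of 4 Y-linked genes summed to 820 and 836 counts in the saline livers and to 2 and 1 in the baicalein livers, where Ddx3y and Uty had none. The Y-linked pattern, and any difference in sex that it reflects, therefore cannot be told apart from the treatment in any value below. The same holds for the summed CPM of Kupffer cell markers (321 to 371 with saline, 574 to 666 with baicalein, 6 of 6 called higher) and of endothelial markers (268 to 303 against 449 to 458, 6 of 6 called higher). These counts and the next stand beside the 7.65% of all tested genes called higher. Stellate cell markers summed to 154 to 404 CPM with saline and 386 to 519 CPM with baicalein (4 of 6 called higher), and lymphocyte markers to 5.25 to 6.29 against 14.2 to 17.5 CPM (1 of 6 called higher). The 2 stellate markers not called, Des and Col1a1, were highest in saline 1 and baicalein 2, the livers with many muscle reads. There Des had 151 and 101 CPM and Col1a1 130 and 101 CPM. In saline 2 and baicalein 1 Des had 2.63 and 6.26 CPM and Col1a1 32.7 and 28.7 CPM. None of these lists was wholly at 0 in any liver, and in bulk tissue fewer cells of a type and less RNA per cell cannot be told apart. The part of these differences in the clock values was not tested.

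The activators were lower with baicalein and most repressors higher. In the fit across all genes 9 of the 10 passed an adjusted p of 0.05, 3 lower and 6 higher, where 15.5% of all tested genes passed (7.9% lower and 7.65% higher). In each of the 10 the values of the saline livers lay wholly on 1 side of the baicalein livers, as in 59.2% of all tested genes. The median absolute log2 fold change was 1.14 for the 10 genes and 0.26 for all tested genes. Without saline 1 or saline 2, 6 of the 10 passed, without baicalein 1, 5, and without baicalein 2, 7. Those lost under some of these were Clock, Cry2, Nr1d1 and Nr1d2. Nothing is read from these counts, since the genes were listed with this contrast known.

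**Figure D1:**
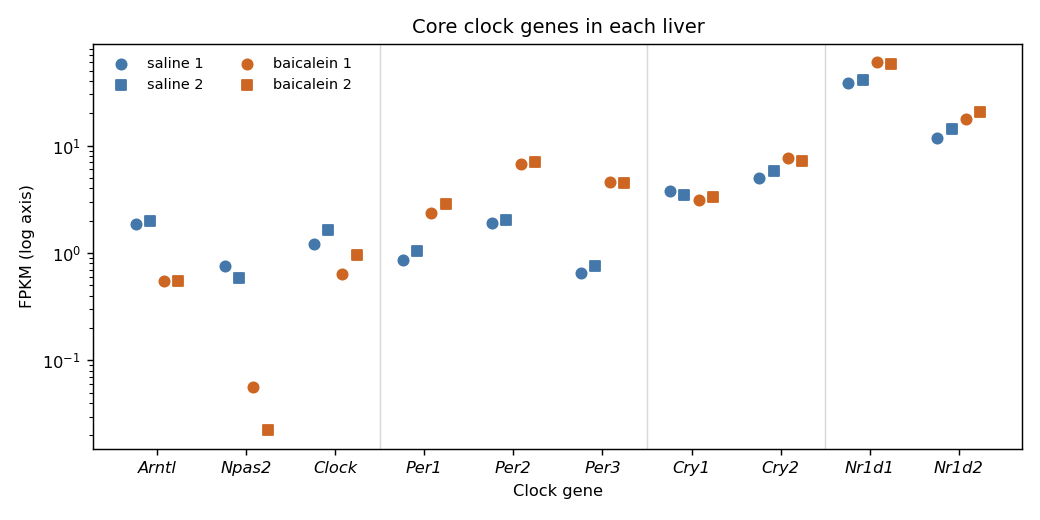
Level of each clock gene in each of the 4 livers, in FPKM on a log axis, with saline livers in blue and baicalein livers in orange; each point is 1 liver. Activators are on the left and lie lower with baicalein, the Per genes lie higher, and Nr1d1 is the highest of the 10 in every liver.

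Among the activators, Arntl, the partner that the loop cannot do without, had 14.5 and 15.2 CPM in the saline livers and 4.19 and 3.84 CPM in those given baicalein. The groups were far apart and the livers within each close together (log2 fold change -1.89, SE 0.17, or 3.70-fold lower). Npas2, a paralogue of Clock that can take its place in the pair, had 64 and 39 counts with saline and 4 and 2 with baicalein. This was the largest difference of the 10 (log2 fold change -4.15, SE 0.58), and it rests on 6 reads in the baicalein livers. The ratio of summed normalised counts was 19.3, with an exact 95% counting interval of 8.58 to 53.9, which covers counting error only. Clock itself had 17.2 and 22.8 CPM with saline and 8.94 and 12.2 CPM with baicalein (log2 fold change -0.91, SE 0.20). It was the activator with the smallest difference, and its livers differed within both groups, by 0.40 and 0.45 on the log2 scale.

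Both paralogues were lower with baicalein, and Npas2 by more. Per length, its transcript made up 38.5% and 26.4% of the summed FPKM of Clock and Npas2 in saline 1 and saline 2. In baicalein 1 and baicalein 2 its share was 8.10% and 2.29%, resting on 4 and 2 Npas2 reads. Together the 3 activators summed to 3.82 and 4.20 FPKM with saline and to 1.25 and 1.52 FPKM with baicalein.

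The Per genes, whose proteins carry the CRY repressors to the activator pair, were the members that rose most. Per3 had 6.53 and 7.37 CPM in the saline livers and 44.9 and 40.2 CPM in those given baicalein, a log2 fold change of 2.62 (SE 0.13). Its lowest baicalein value was more than 5 times its highest saline value. Per2 had 11.6 and 12.2 CPM with saline and 40.0 and 38.6 CPM with baicalein (log2 fold change 1.72, SE 0.11), with livers of a group nearly alike. Per1, which also responds quickly to hormones and cAMP, had 5.06 and 5.98 CPM against 13.5 and 15.0 CPM (log2 fold change 1.37, SE 0.17). The order of the 3 differences was Per3, Per2, Per1. Per length, Per3 made up 19.1% and 19.6% of the Per FPKM with saline and 33.6% and 31.1% with baicalein, while Per2 was the most abundant of the 3 in all 4 livers, at 49.0% to 55.8%.

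The Cry genes, which encode the repressors that bind the activator pair directly, had the smallest differences of the 10. Cry2 had 33.2 and 37.1 CPM with saline and 49.2 and 42.5 CPM with baicalein (log2 fold change 0.38, SE 0.11). Cry1 had 13.1 and 11.8 CPM with saline and 10.6 and 10.4 CPM with baicalein. Its log2 fold change of -0.25 (SE 0.15) was the only one of the 10 that did not pass, and its 95% interval ran from -0.59 to 0.09. Cry1 holds both an E-box and its variant in the promoter shown above, and Per1, which also holds an E-box, rose. Whether these motifs bear on the differences was not tested. Per length, Cry1 was 42.8% and 37.6% of the summed Cry FPKM with saline and 29.0% and 31.6% with baicalein.

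Nr1d1 and Nr1d2, the repressors of Arntl and Npas2, were the most abundant transcripts of the loop and rose by less than the Per genes. Nr1d1 had 122 and 127 CPM with saline and 186 and 166 CPM with baicalein (log2 fold change 0.50, SE 0.10). Nr1d2 had 65.7 and 78.8 CPM with saline and 98.1 and 103 CPM with baicalein (log2 fold change 0.48, SE 0.11). Per length, both together made up 74.7% to 76.1% of the summed FPKM of the 10 genes in every liver, so this share hardly differed between groups. Nr1d1 was 73.9% to 76.9% of the pair in all 4 livers. The span of Nr1d1 overlaps that of Thra on the opposite strand by 1075 bases, and the sources used here do not say whether counting used strand. Thra was at 15.6 ± 1.69 and 17.2 ± 2.68 CPM (SD, n = 2 each), far below Nr1d1. Per3 lies within the span of Camta1 on the same strand. Camta1 had 6.55 ± 0.294 CPM with saline and 6.52 ± 1.15 CPM with baicalein, against 6.95 ± 0.595 and 42.6 ± 3.32 CPM for Per3. Whether the genes shared reads was not tested.

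**Figure D2:**
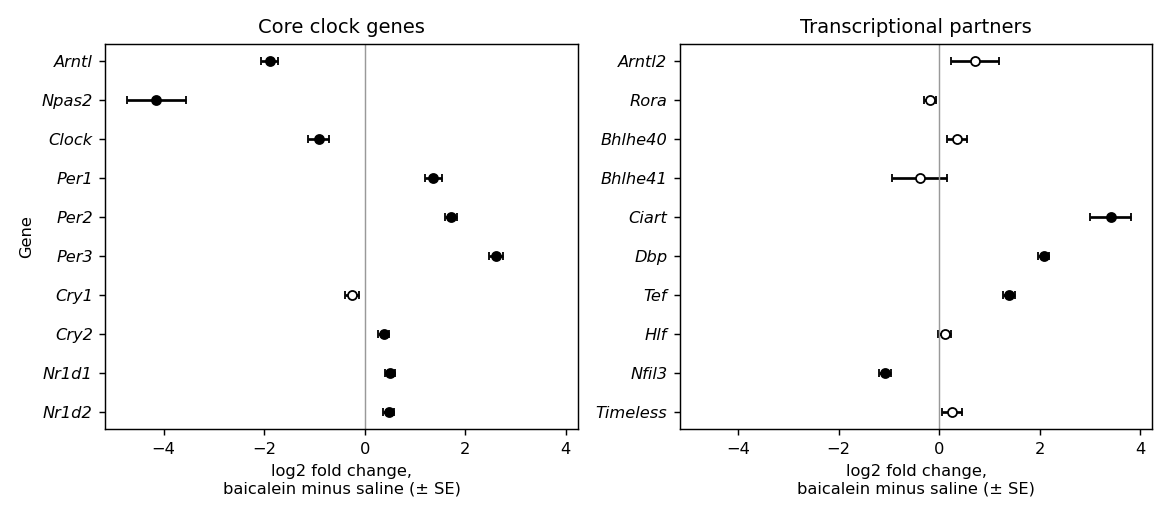
Log2 fold change of CPM between baicalein and saline livers with its standard error, for the 10 core clock genes (left) and 10 of the 11 tested transcriptional partners (right); filled points passed an adjusted p of 0.05 and open points did not. Npas2 lies farthest to the left at -4.15 and Ciart farthest to the right at 3.41.

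The order of the levels per length changed in the middle and stayed at the top. In every liver Nr1d1 came first (38.1 and 40.6 FPKM with saline, 59.6 and 57.7 FPKM with baicalein), then Nr1d2 and then Cry2. With saline, Cry1 (3.78 and 3.47 FPKM) came next, above Per2 (1.91 and 2.04 FPKM) and Arntl (1.86 and 1.99 FPKM). Per2 lay close above Arntl, at a ratio of 1.03 in both saline livers. With baicalein, Per2 (6.72 and 7.06 FPKM) and Per3 (4.60 and 4.48 FPKM) stood above Cry1 (3.12 and 3.32 FPKM). Per2 then lay close under Cry2 (7.66 and 7.19 FPKM). Arntl moved from rank 6 to rank 9 of the 10, at 0.549 and 0.546 FPKM. Npas2 was the lowest in 3 livers, and in saline 1 Per3 was, at 0.654 FPKM against 0.756 FPKM for Npas2.

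Ratios within a liver put the 2 arms of the loop side by side. The FPKM ratio of Per3 to Arntl was 0.352 and 0.378 in the saline livers and 8.38 and 8.20 in the baicalein livers. That of Per2 to Arntl was 1.03 in both saline livers and 12.2 and 12.9 in the baicalein livers. Nr1d1 to Arntl gave 20.5 and 20.4 against 109 and 106. In these ratios to Arntl the livers of 1 group were close. Per1 to Cry1 differed more within a group, at 0.229 and 0.300 with saline and 0.755 and 0.858 with baicalein. The part of muscle reads in the ratios was not tested. Among repressors alone, Per2 to Cry1 went from 0.506 and 0.588 to 2.15 and 2.12. The ratios use the same reads as the differences above and are no further support for them.

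**Figure D3:**
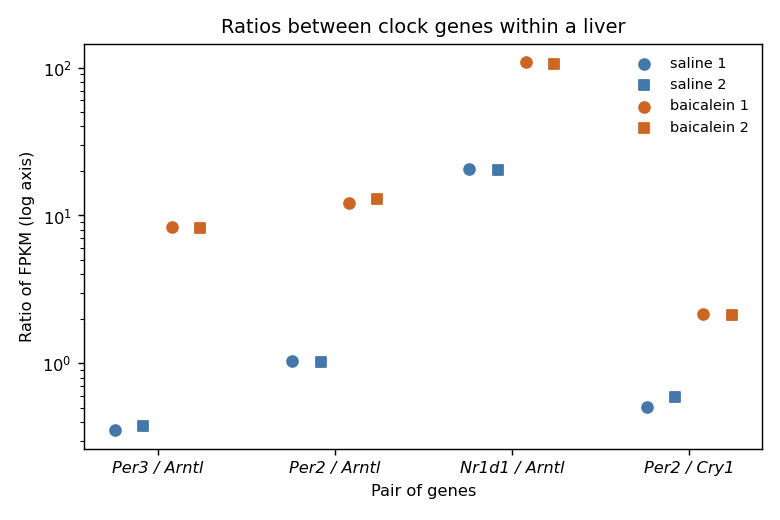
Ratio of FPKM between 2 clock genes in each liver, on a log axis, with saline livers in blue and baicalein livers in orange; each point is 1 liver. Per3 to Arntl lies below 0.4 in the saline livers and above 8 in the baicalein livers, and livers of a group nearly coincide.

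Each group had 1 liver with many skeletal muscle reads, and the differences are given within livers alike in this respect, with 1 liver a side. Between the livers with few muscle reads (baicalein 1 minus saline 2), the log2 difference was -1.86 for Arntl, 1.71 for Per2 and 2.61 for Per3. Between those with many (baicalein 2 minus saline 1), it was -1.92, 1.73 and 2.62. All 10 genes had the same sign in both pairs, which follows from the lack of overlap between the groups. The pairs differed most for Npas2 (-3.37 and -5.24), Clock (-1.35 and -0.49), Per1 (1.17 and 1.57) and Nr1d2 (0.32 and 0.65). With 1 liver a side these differences have no spread, and the part of muscle reads in them was not tested.

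**Figure D4:**
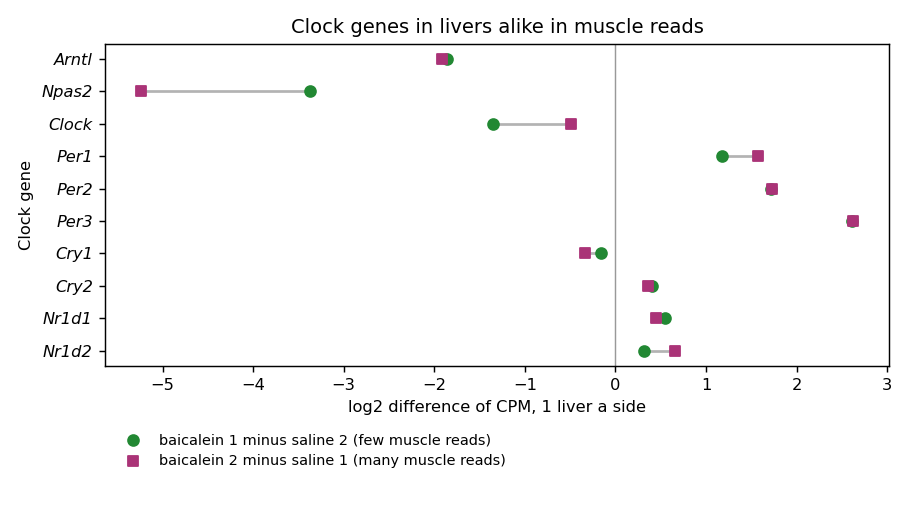
Log2 difference of CPM between 1 baicalein and 1 saline liver for each clock gene, in the pair with few skeletal muscle reads (green circles) and the pair with many (purple squares). The points of Per3 coincide at 2.61 and 2.62, and those of Npas2 lie farthest apart, at -3.37 and -5.24.

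Other genes of the clock were taken from lists that do not hold the 10. Of 12 transcriptional partners 11 were tested, Rorb having no read in any liver, and 4 rose, 1 fell and 6 did not pass (edgeR's quasi-likelihood test, adjusted over all genes, where 15.5% passed). The median log2 fold change of the 11 was 0.36, against 0.01 for all tested genes. Results for Ciart, Dbp and Tef, 3 of the 5 that passed, were known when the list was written, so nothing is read from its share against that of all genes. Ciart, a repressor of the activator pair, had 7 and 7 counts with saline and 85 and 82 with baicalein, 3.41 higher on the log2 scale (SE 0.41, adjusted p = 8.85e-04). Of the genes whose proteins bind D-boxes, 3 of 4 passed. Dbp (21.1 ± 0.298 to 89.5 ± 9.90 CPM, SD, n = 2 each; log2 fold change 2.09, adjusted p = 6.70e-06) and Tef (95.5 ± 9.07 to 250.5 ± 27.5 CPM, log2 fold change 1.39, adjusted p = 1.53e-04), which encode activators at D-boxes, both rose.

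Nfil3, which encodes the repressor that competes for D-boxes and whose gene REV-ERB proteins repress, fell. It had 502 and 429 counts with saline and 199 and 306 with baicalein, or 30.4 ± 1.26 against 14.5 ± 1.12 CPM, and its log2 fold change was -1.07 (SE 0.12, adjusted p = 6.55e-04). Hlf, the remaining activator of this family, did not pass, at 65.7 ± 11.7 CPM with saline and 71.1 ± 3.81 CPM with baicalein. Rora, whose product activates Arntl, did not pass (log2 fold change -0.18, SE 0.12). Bhlhe40, a repressor at E-boxes (log2 fold change 0.36, SE 0.20, adjusted p = 0.313), and Arntl2, a paralogue of Arntl with at most 27 counts in a liver (0.71, SE 0.48, adjusted p = 0.371), did not pass.

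A further list held kinase, ubiquitin ligase, protease and transcriptional cofactor genes that act with the clock proteins. Of these 24 genes none rose and 1 fell, 4.17% against 15.5% of all tested genes, with a median log2 fold change of -0.05. This list too was chosen with earlier results of these data known, so nothing is read from its share. The 1 that fell was Prkaa2, a catalytic subunit of AMP-activated protein kinase, which marks CRY for breakdown. It fell by 0.41 on the log2 scale (SE 0.09, adjusted p = 0.0180), from 80.7 ± 2.05 to 60.7 ± 2.83 CPM. Its call was lost without any 1 liver (adjusted p up to 0.115). Csnk1d and Csnk1e, the casein kinases that act on PER, gave log2 fold changes of -0.08 (SE 0.09) and -0.05 (SE 0.18). Ppargc1a, a cofactor of the ROR proteins (0.87, SE 0.26, adjusted p = 0.0541), and Hdac3, which REV-ERB proteins recruit (-0.22, SE 0.09, adjusted p = 0.137), did not pass. Usp2, a clock-driven protease, had 166, 35, 286 and 458 counts in saline 1, saline 2, baicalein 1 and baicalein 2 and did not pass with all livers (log2 fold change 1.77, SE 0.86, adjusted p = 0.355). It did pass without saline 1 and without saline 2. Usp2 and the casein kinases were singled out after their values were seen.

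Genes that answer the cues known to set the liver clock were listed as well. These lists were also chosen with earlier results of these data known, so nothing is read from their shares. Of 7 glucocorticoid genes 4 rose, 2 fell and 1 did not pass, where 7.65% of all tested genes rose and 7.9% fell. Fkbp5, a chaperone gene that the hormone induces, had 28.7 ± 4.44 CPM with saline and 82.4 ± 5.73 CPM with baicalein and rose by 1.52 on the log2 scale (SE 0.12, adjusted p = 1.28e-04), and Tsc22d3 (0.46), Zbtb16 (0.48) and Nr3c1, the receptor (0.44), rose by less. Dusp1, a phosphatase that stress also induces, fell (-1.29, SE 0.12), as did Tat, a tyrosine-degrading enzyme (-0.40, SE 0.11), so the list had no common direction. Of these 6 only Fkbp5 and Dusp1 were called with each liver left out. Tsc22d3 missed the threshold without saline 1, without saline 2 and without baicalein 1, Zbtb16 without any 1 liver, Tat without saline 1, saline 2 or baicalein 2, and Nr3c1 without saline 1, baicalein 1 or baicalein 2 (adjusted p up to 0.0816, 0.154, 0.355 and 0.229). Sgk1 did not pass (0.20, SE 0.38).

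Of 9 immediate early genes of cAMP and stress signalling none rose and 3 fell (7.65% and 7.9% of all tested genes). They were the transcription factor genes Egr1 (log2 fold change -0.98, SE 0.11) and Atf3 (-1.53, SE 0.20) and the kinase gene Sik1 (-0.92, SE 0.14), all 3 also called with each liver left out. Nr4a1 (-1.45, SE 0.50, adjusted p = 0.199) and Ier2 (0.16, SE 0.11, adjusted p = 0.395) did not pass. Per1, which the same signalling induces, was higher with baicalein, and a link between Per1 and these genes was not tested. Of 9 temperature-responsive genes the chaperone genes Hsph1 (0.88, SE 0.15) and Hspa8 (0.52, SE 0.10) rose and none fell, against the same shares. Hspa8 missed the threshold once saline 1 or saline 2 was left out (adjusted p up to 0.212), and Hspa1b (-0.39, SE 0.14) and Hsp90aa1 (0.22, SE 0.12) did not pass. Cirbp and Rbm3, the cold-induced RNA-binding protein genes, each gave 0.09 (SE 0.11 and 0.12).

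Of 10 feeding and fasting genes 3 rose and 1 fell (7.65% and 7.9% of all tested genes). Among those that rose were the fat synthesis genes Srebf1 (log2 fold change 1.34, SE 0.13) and Fasn (1.20, SE 0.14). The 1 that fell, G6pc, encodes the last enzyme of glucose output (570.1 ± 168 CPM with saline, 166.7 ± 25.0 CPM with baicalein). Its log2 fold change was -1.77 (SE 0.27, adjusted p = 0.0286), and it missed the threshold when either baicalein liver was left out, at adjusted p up to 0.317. Igfbp1, high in fasting, did not pass with all livers (-2.06, SE 0.38, adjusted p = 0.0802) but did without saline 1 and without saline 2. Whether any of these cues bears on the clock genes was not tested.

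Genes with a pattern like that of a clock gene were found by the root mean square distance of centred log2 CPM over the 4 livers, among genes with a mean of at least 5 CPM. Closest to Arntl were C8a (distance 0.03 on the log2 scale), Keg1 (0.04) and C8b (0.06), of which C8a and C8b encode chains of complement component 8. C8a had 932 and 993 CPM with saline and 280 and 273 CPM with baicalein. Closest to Per3 were Tox (0.08), which encodes a nuclear protein, Gstt3 (0.10), a glutathione transferase gene, and Cyp7a1 (0.11), the rate-limiting enzyme of bile acid synthesis. Cyp7a1 had 9.23 and 9.63 CPM against 58.8 and 45.3 CPM. With 4 livers in 2 groups such a likeness says little more than that the groups differ by a like amount.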

How the data were processed

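RNA sequencing was done on 2 saline and 2 baicalein livers, per the labels. The deposited table gives, for each liver, whole-number read counts per gene and FPKM, the authors' scaling by gene length and total reads, per the file headers. The submitters' processing notes name the build as mm10, which is GRCm38. The sources used here name no aligner or counter. The FPKM of the 10 clock genes equal count over length and total to within 0.00387%. The table's positions differ from the GRCm38.p6 positions of the RefSeq promoters and so conflict with the named build. The build behind them is therefore uncertain, and only the promoter positions are printed.

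Counts were filtered (filterByExpr), scaled by TMM and tested by a robust quasi-likelihood fit without covariates in edgeR 4.0.16 (R 4.3.3, two-sided), with Benjamini-Hochberg adjustment over 12657 genes and a threshold of 0.05. SEs are the log2 fold change over the root of F, and intervals are 95%. The fit was first tested on simulated data with the same dispersion for every gene. That simulation lacked the spread of muscle reads within each group, so it gives no error rates for these livers. With 2 against 2 livers an exact permutation test cannot pass 0.05. The normalised library sizes put 1 read at 0.0499 to 0.0729 CPM.

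The members and lists were chosen with earlier results of these data known. The rule named all 10 members, every passing gene of each list, or the 8 of smallest p, and the 2 non-passing genes of smallest p. Of the clock and cue lists, Rora, Hlf, Csnk1d, Csnk1e, Usp2, Cirbp and Rbm3 were named outside this rule. Likeness used a pseudocount of 0.5 CPM. Alternatives were median-of-ratios size factors, DESeq2 1.42.0, limma-voom (limma 3.58.1), no filter, a mean CPM of at least 1, a replicate block, each liver left out, and a crossed block added after the data were seen. A few genes of the lists are counted but not reported here by name.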

Additional observations from a re-analysis of the deposited data

How the results depend on the processing

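All 10 clock genes kept their sign under all 11 alternatives, which the lack of overlap between the groups largely fixes. Arntl, Npas2, Per1, Per2 and Per3 passed under each of them, Cry1 under none. Clock was lost with limma-voom and without saline 2 or baicalein 1, Cry2 with DESeq2, limma-voom, the replicate block and each liver left out, Nr1d1 with the replicate block and without saline 1, saline 2 or baicalein 1, and Nr1d2 with limma-voom and without saline 1, baicalein 1 or baicalein 2. Their adjusted p reached 0.106, 0.277, 0.118 and 0.157. The clock genes called numbered 9 with all livers and 5 to 7 with a liver left out, the fewest without baicalein 1. With the replicate block 7 were called, and 1132 genes of all against 1968. Livers with the same number did not deviate together (r = -0.74 over genes), so the numbers are not taken to pair them. With crossed pairs, which set livers with many muscle reads together, 9 clock genes and 3498 genes were called. Leaving out a liver left 1056 to 1328 genes called, with fewer degrees of freedom, the fewest without saline 2 (1093 without saline 1, 1125 without baicalein 2). Turnover and cofactor genes called numbered 1, but 2 with no filter on low counts, 0 with the replicate block, 2 with crossed pairs and 0 to 1 with a liver left out. Of the transcriptional partners 4 to 6 were called under the alternatives (5 with the main choices) and of the cue genes 11 to 22 (15). Hsph1 was not called with the replicate block (adjusted p = 0.0981). Depth limits Npas2 most, at 4 and 2 reads with baicalein. The cause of these changes was not tested.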
